A study of Homo sapiens with 10 samples.

Results

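The L1 family of adhesion genes is described here by its peaks of H4R3me2s, histone H4 symmetrically dimethylated at arginine 3, in SH-SY5Y human neuroblastoma cells. The members were taken by gene name, as the 4 vertebrate genes NRCAM, CHL1, NFASC and L1CAM, out of 19974 protein-coding genes of RefSeq GRCh38 on chromosomes 1 to 22 and X. A peak was assigned to a gene when it met the annotated span plus 2 kb on each side. Chromatin immunoprecipitation and sequencing (ChIP-seq) gave 9 libraries in 3 groups of 3. Naive cells received no differentiation treatment. BDNF cells had 10 µM retinoic acid for 6 days, then BDNF, a neurotrophin, at 50 ng/ml for 4 days. BDNF+Dox cells had the same and 1 µg/ml doxycycline for 3 days to induce α-synuclein through a Tet-on system. All groups were the same line, and the growth medium given for every sample held 300 µg/ml zeocin. The promoter and the clone of the α-synuclein construct are not given in the sources used here, and a group with the drug but without the construct was not analysed here. What doxycycline does by itself and what α-synuclein does therefore cannot be told apart. Nothing in the labels says that the replicates came from separate cultures, so the tests measure the spread between these libraries, which may be technical.

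L1 family proteins are neuronal cell surface molecules with immunoglobulin-like and fibronectin type III repeats outside the cell, a single membrane span and a short tail that binds ankyrin. They guide and bundle axons and help to anchor sodium channels and other proteins at the axon initial segment and the node of Ranvier. H4R3me2s is written mainly by the methyltransferase PRMT5 and is best known from repressed genes. Peak lists hold no expression values, so neither the neuronal identity of the cells nor the activity of these genes could be checked in them. In a bulk culture, more cells with the mark and more of the mark in each cell cannot be told apart.

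The 9 libraries kept from 17164402 to 18928589 reads, and held from 4536 to 12207 peaks called by the authors over 1 shared Input library. In the median library 91.7% of these peaks carried a q of 1 in the authors' deposited table. From 0.405% to 1.24% of a library's peaks met a peak of another library of its group, so a peak seen in a single library has little support by itself. In 4 further lists, narrow and broad, the authors called peaks of the pooled BDNF+Dox reads over those of BDNF or of Naive. The lists of the opposite direction were not used here, and both pooled comparisons share their BDNF+Dox reads.

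NRCAM lies on chromosome 7 from 108147649 to 108456720, on the reverse strand, with 3 annotated starts. The most upstream start in the list of starts used, at 108456436, lies inside this span, and so do the 250 bases before it. CHL1 lies on chromosome 3 from 196763 to 409417, NFASC on chromosome 1 from 204828652 to 205022822, and L1CAM on chromosome X from 153861514 to 153886173. Their spans are 309.1, 212.7, 194.2 and 24.7 kb, so L1CAM offers by far the least room for peaks. The 250 bases before the starts that the peaks can best be set against are shown 5′ to 3′ on the strand of the gene (RefSeq, GRCh38.p14). Capitals mark the GC box GGGCGG or its reverse complement CCGCCC, searched on both strands, the site known for the transcription factor SP1.
NRCAM, most upstream start, chr7:108456437-108456686, reverse strand: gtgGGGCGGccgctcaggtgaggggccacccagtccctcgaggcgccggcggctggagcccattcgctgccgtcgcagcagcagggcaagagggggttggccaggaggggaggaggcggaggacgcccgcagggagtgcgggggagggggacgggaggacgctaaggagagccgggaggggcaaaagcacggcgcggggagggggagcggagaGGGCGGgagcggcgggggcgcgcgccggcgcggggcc
NRCAM, internal start nearest to the recurring peaks, chr7:108328527-108328776, reverse strand: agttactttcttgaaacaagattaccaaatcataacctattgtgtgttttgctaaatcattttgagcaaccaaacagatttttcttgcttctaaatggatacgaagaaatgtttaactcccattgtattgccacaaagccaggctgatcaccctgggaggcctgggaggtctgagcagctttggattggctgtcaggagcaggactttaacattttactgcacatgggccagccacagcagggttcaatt
CHL1, the start with a library peak within 2 kb, chr3:197639-197888, forward strand: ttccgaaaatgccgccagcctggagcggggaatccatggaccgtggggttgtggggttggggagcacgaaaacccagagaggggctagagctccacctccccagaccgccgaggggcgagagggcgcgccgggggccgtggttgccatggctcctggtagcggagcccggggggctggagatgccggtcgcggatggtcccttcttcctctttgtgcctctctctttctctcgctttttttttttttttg
NFASC, most upstream start, chr1:204828402-204828651, forward strand: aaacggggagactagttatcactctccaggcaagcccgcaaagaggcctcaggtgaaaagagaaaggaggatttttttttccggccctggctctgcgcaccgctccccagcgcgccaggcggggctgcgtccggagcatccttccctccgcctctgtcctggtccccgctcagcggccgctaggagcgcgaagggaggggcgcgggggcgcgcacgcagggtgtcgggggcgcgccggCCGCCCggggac

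The upstream NRCAM start has 29 CG dinucleotides and 2 GC boxes in this window, whereas the internal start has 1 and 0. NFASC has 27 and 1, and this CHL1 start 18 and 0. A GC box is found in 53.7% of the 22156 windows of this length before starts of protein-coding genes. No library peak lay on any of these windows. The nearest library peak was 6.57 kb from the upstream NRCAM start, 6.10 kb from the internal one, 1.11 kb from this CHL1 start and 22.2 kb from the NFASC start. In all, 1 of the 27 distinct places with a library peak in the family had its centre within 2 kb of an annotated start. Exons and introns could not be told apart with the annotation used.

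H4R3me2s peaks were more numerous in NRCAM and NFASC in cells induced for α-synuclein than in the other groups, but neither difference passed the test. Across the family the 3 BDNF+Dox libraries held 10, 5 and 5 peaks, the BDNF libraries 2, 2 and 1, and the Naive libraries 2, 0 and 2 (replicates 1, 2 and 3 in each case). Every BDNF+Dox library thus held more family peaks than any other library. Per Mb of gene this was 8.81 ± 3.82 peaks (SD, n = 3) for BDNF+Dox, 2.2 ± 0.763 for BDNF and 1.76 ± 1.53 for Naive. Protein-coding genes of 100 kb or more, of which there are 3351, held 2.98 ± 0.798, 2.01 ± 0.426 and 2.88 ± 1.02 peaks per Mb in the same libraries. The bases under family peaks came to a mean of 1263 in a BDNF+Dox library, against 289 in BDNF and 285 in Naive libraries. The family density was 2.88 ± 0.450 times that of the long genes in BDNF+Dox libraries, 1.17 ± 0.573 times in BDNF and 0.551 ± 0.504 times in Naive. No p is given for this sum, because the members were chosen with results of these data known.

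**Figure D1:**
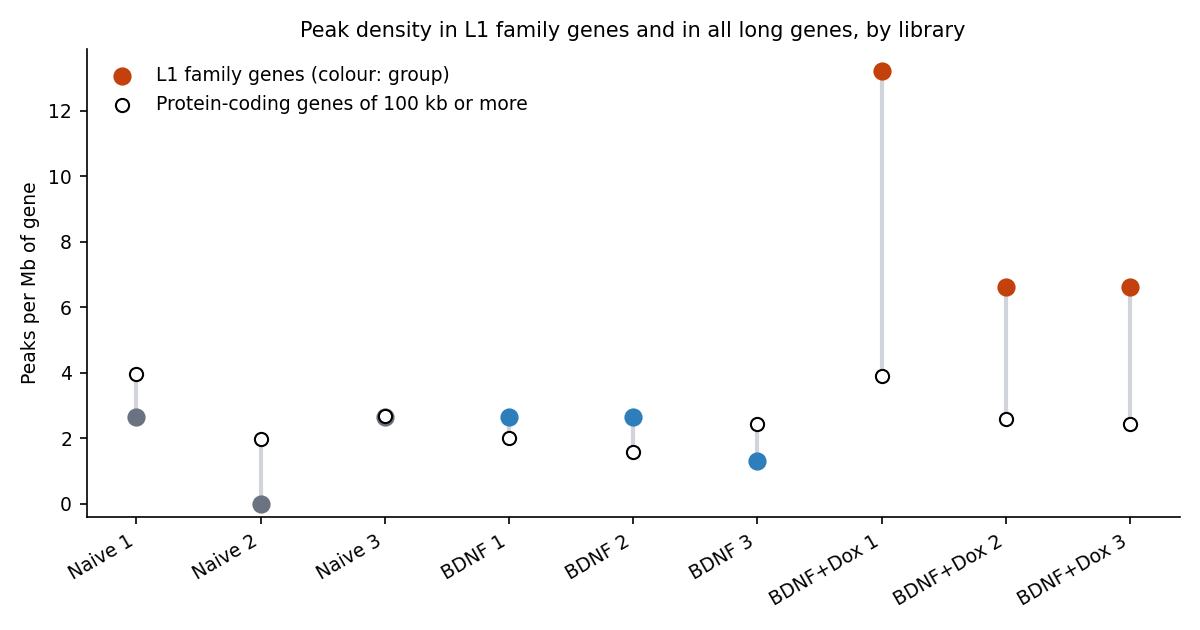
Peaks per Mb of gene in each library (y axis) for the 4 L1 family genes together (filled, coloured by group) and for all protein-coding genes of 100 kb or more (open); grey lines join the values of a library. In the BDNF+Dox libraries the family held 8.81 ± 3.82 peaks per Mb (mean ± SD, n = 3) and lay above the long genes in each of the 3.

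NRCAM, which clusters sodium channels at nodes of Ranvier and guides axons, held 6, 2 and 3 peaks in the BDNF+Dox libraries. It held 1, 2 and 0 in the BDNF libraries and 2, 0 and 1 in the Naive libraries. The groups overlap at 2 peaks, and BDNF+Dox replicate 1 stands highest. The means were 3.67 ± 2.08, 1 ± 1 and 1 ± 1 peaks per library (SD, n = 3). Per Mb of the gene this is 11.7 ± 6.65, 3.19 ± 3.19 and 3.19 ± 3.19. The difference among the 3 groups was within the library-to-library spread (exact permutation test of the F ratio, p = 0.107, adjusted over the 7453 genes with a library peak p = 1). BDNF+Dox exceeded BDNF, and likewise Naive, by 2.67 peaks per library (exact two-sided permutation p = 0.2 for each, where 3 libraries against 3 cannot go below 0.1). Without BDNF+Dox replicate 1 the excess over BDNF was 1.5 peaks, and without BDNF+Dox replicate 2 it was 3.5, with an unadjusted exact permutation p of 0.0357 over the groups. Over all genes, 0 of 7453 passed at an adjusted p of 0.05 in this test, and 70 had an unadjusted p under 0.05 (0.939%). With 1680 assignments the lowest possible p all but precludes passing after adjustment over 7453 genes. The adjusted p given here and for the genes below therefore decides nothing about them.

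NRCAM was the 1 member with a peak in all 3 BDNF+Dox libraries, which 2.72% of all protein-coding genes and 15.1% of those of 100 kb or more also had. It was also the 1 member with a place that more than 1 library shared. Of its 15 distinct places with a library peak, 14 were held by a single library and 1 by the 3 BDNF+Dox libraries together. The shared place runs from 108322116 to 108322426. In BDNF+Dox replicate 1 the peak spanned 108322205 to 108322393, with a fold enrichment over local background of 3.01 and a −log10 p of 3.36. Replicate 2 had 108322214 to 108322426 (fold 3.92, −log10 p 5.00) and replicate 3 had 108322116 to 108322300 (fold 3.40, −log10 p 3.72). The 3 peaks have 87 bases in common, from 108322214 to 108322300, and their summits lie within 76 bases. Each had q = 1 in the authors' deposited table of its library. The pileup at the summit, a coverage scaled to the depth of the Input, was 7.22, 9.45 and 7.58. Of all 65632 places with a library peak in the genome, 2 had this pattern of 3 BDNF+Dox and 0 of the 6 other libraries (0.00305%), and 2.37% were held by 2 or more libraries. No place in the family had this pattern once weaker peaks were left out, whether by −log10 p (5 or more) or by taking as many peaks from each library.

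The shared place was among the stronger peaks of the pooled lists, which were made from the same reads. Over BDNF its narrow peak ranked 16 of 9877 by −log10 p (9.57), with the summit at 108322265, fold 4.21 and a q value of 0.000243 in the authors' deposited table. Over Naive it ranked 73 of 7919 (−log10 p 6.95, summit at 108322267, fold 3.25, q = 0.0221 in the authors' deposited table). These were the family's 2 pooled peaks with q of 0.05 or less. Such a narrow peak was found in 0.12% of all protein-coding genes over BDNF and in 0.19% over Naive, and in 0.448% and 0.716% of the long genes. The broad calls covered the same place at 108322126 to 108322514 over BDNF (rank 107 of 25258, fold 2.75, q = 0.260) and at 108321854 to 108322410 over Naive (rank 171 of 20219, fold 2.52, q = 0.576) in the authors' deposited tables. The summit over BDNF lies 6.26 kb downstream of the internal NRCAM start whose sequence is shown, and 134.2 kb downstream of the most upstream start.

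The other 8 BDNF+Dox places in NRCAM were each seen in a single library and were spread from 25.0 to 293 kb downstream of the most upstream start. The pooled lists showed little of them. Over BDNF the second narrow peak in NRCAM, at 108269995 to 108270174 (fold 2.62, q = 0.861 in the authors' deposited table), met a peak of BDNF+Dox replicate 1. Over Naive the other narrow peaks lay at 108245820 to 108246010 and at 108313745 to 108313948 (q = 1 for both in the authors' deposited table) and met no library peak. The BDNF and Naive libraries had 6 NRCAM peaks in 6 different places, of which 1 Naive and 1 BDNF peak lay where the noncoding gene LOC102724363 overlaps NRCAM. No pooled peak in any member met a peak of its control group's libraries. Pooled peaks are called where the control reads are low, so little such overlap can arise. Its share over all pooled peaks was not counted.

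**Figure D2:**
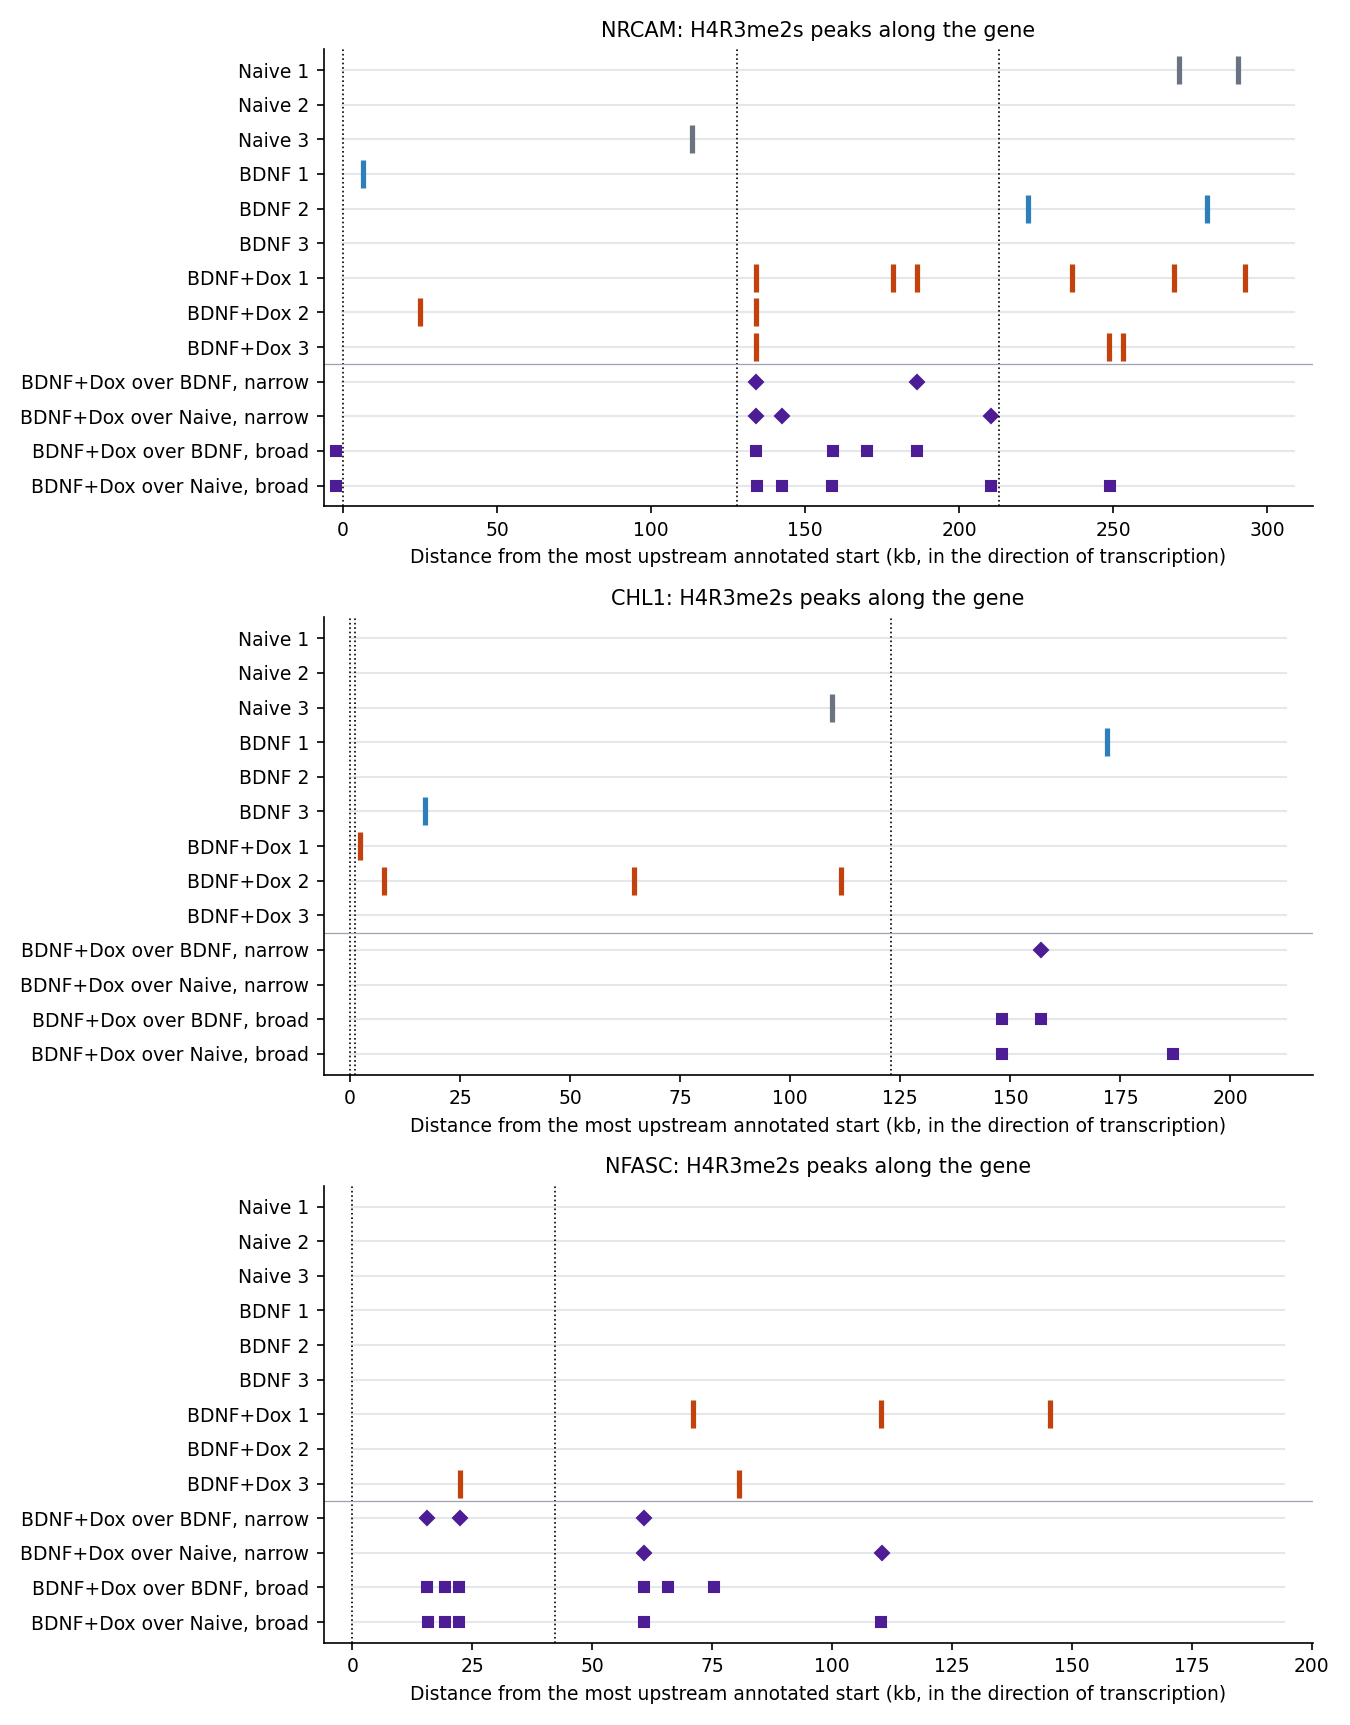
Positions of H4R3me2s peaks along NRCAM, CHL1 and NFASC in kb downstream of the most upstream annotated start (x axis), with 1 row per library (ticks at the summits, coloured by group) and 1 row per pooled list (diamonds for narrow summits, squares for centres of broad peaks); dotted lines mark annotated starts. The 3 BDNF+Dox libraries share a position at about 134 kb in NRCAM, where the 4 pooled lists also have a peak, and NFASC has library peaks in BDNF+Dox replicates 1 and 3.

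NFASC encodes neurofascin, whose neuronal form anchors the axon initial segment and the node and whose glial form joins the myelin loops to the axon. It held 3, 0 and 2 peaks in the BDNF+Dox libraries and 0 in each of the 3 BDNF and 3 Naive libraries. BDNF+Dox replicate 2 was at 0 like the other groups, so the groups overlap. The means were 1.67 ± 1.53, 0 and 0 peaks per library (SD, n = 3), or 8.41 ± 7.71 peaks per Mb in BDNF+Dox. The groups did not differ beyond their spread (exact permutation p = 0.25, adjusted over all tested genes p = 1, and exact two-sided permutation p = 0.4 for BDNF+Dox against either group). Without BDNF+Dox replicate 2 the unadjusted exact permutation p was 0.0357, and without replicate 1 the excess over BDNF was 1 peak per library in place of 1.67.

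A pattern of 5 or more peaks in the BDNF+Dox libraries and 0 in the 6 others, set after the NFASC values were seen, occurred in 6 of 19974 protein-coding genes (0.03%), all of them 100 kb or longer (0.179% of such genes). Peaks in 2 or more BDNF+Dox libraries and 0 in the others, a looser form, occurred in 0.981% of all protein-coding genes and in 2.18% of the long genes. The 5 NFASC peaks lay in 5 different places. The strongest, in BDNF+Dox replicate 1 at 204938804 to 204939068, had fold 3.91, −log10 p 4.96 and a q of 0.754 in the authors' deposited table. It met a narrow peak over Naive at 204938832 to 204939046 (fold 2.78, q = 1 in the authors' deposited table). The BDNF+Dox replicate 3 peak at 204850881 to 204851047 met a narrow peak over BDNF at 204850881 to 204851063, the strongest in the gene (fold 3.08, −log10 p 4.47, q = 0.827 in the authors' deposited table). The strongest narrow peak over Naive, at 204889242 to 204889524 (fold 2.74, q = 1 in the authors' deposited table), met no library peak. The strongest broad peaks of NFASC were at that same place, at 204889312 to 204889493 over BDNF (fold 2.57) and 204889242 to 204889524 over Naive (fold 2.76), again with q = 1 in the authors' deposited tables. The remaining NFASC library peaks lay at 204899528 to 204899702 and 204973914 to 204974088 in BDNF+Dox replicate 1 and at 204909179 to 204909332 in replicate 3. All 5 lay downstream of the most upstream start, from 22.3 to 145.3 kb into the gene.

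CHL1, the close homolog of L1 that promotes neurite outgrowth and migration, held 1, 3 and 0 peaks in the BDNF+Dox libraries, 1, 0 and 1 in BDNF and 0, 0 and 1 in Naive. The groups overlap widely. Its means of 1.33 ± 1.53, 0.667 ± 0.577 and 0.333 ± 0.577 peaks per library (SD, n = 3) did not differ beyond the spread (exact permutation p = 0.786, adjusted p = 1). Without BDNF+Dox replicate 2, which alone held 3 peaks, BDNF+Dox was below BDNF by a mean difference of -0.167 peaks per library. The strongest CHL1 peak, at 261104 to 261285 in that library, had fold 3.69, −log10 p 3.92 and a q of 1 in the authors' deposited table. The peak nearest to a start, in BDNF+Dox replicate 1 at 198999 to 199173, lies just downstream of the CHL1 start whose sequence is shown, with fold 3.04 and a q value of 1 in the authors' deposited table. The 1 pooled narrow peak in CHL1, over BDNF at 353657 to 353819 (fold 2.97, q = 1 in the authors' deposited table), met no library peak. It was also the strongest broad peak of CHL1 over BDNF, with fold 2.53, and the strongest over Naive lay at 383331 to 383897 with fold 2.30 (q = 1 for both in the authors' deposited tables). The BDNF replicate 1 peak, at 368552 to 368727, lies where the antisense gene CHL1-AS1 overlaps CHL1, and the signal of the 2 genes cannot be told apart. Of the 7 places with a CHL1 library peak, 4 came from BDNF+Dox libraries and none was shared by 2 libraries.

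L1CAM, the founding member, which is mutated in X-linked hydrocephalus, held 0 peaks in each of the 9 libraries and in each of the 4 pooled lists. With its flanks it measures 28.7 kb, and few peaks would fall there at the density of the long genes, 2.98 per Mb in BDNF+Dox libraries. Its count of 0 therefore does not set it apart from the longer members. Across the family, 3 of 4 members had a peak in at least 1 library, against 37.3% of all protein-coding genes and 90% of those of 100 kb or more. By group, 3 of 4 had a peak in a BDNF+Dox library, 2 of 4 in a BDNF library and 2 of 4 in a Naive library, where 73.6%, 61.8% and 67.2% of the long genes did.

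**Figure D3:**
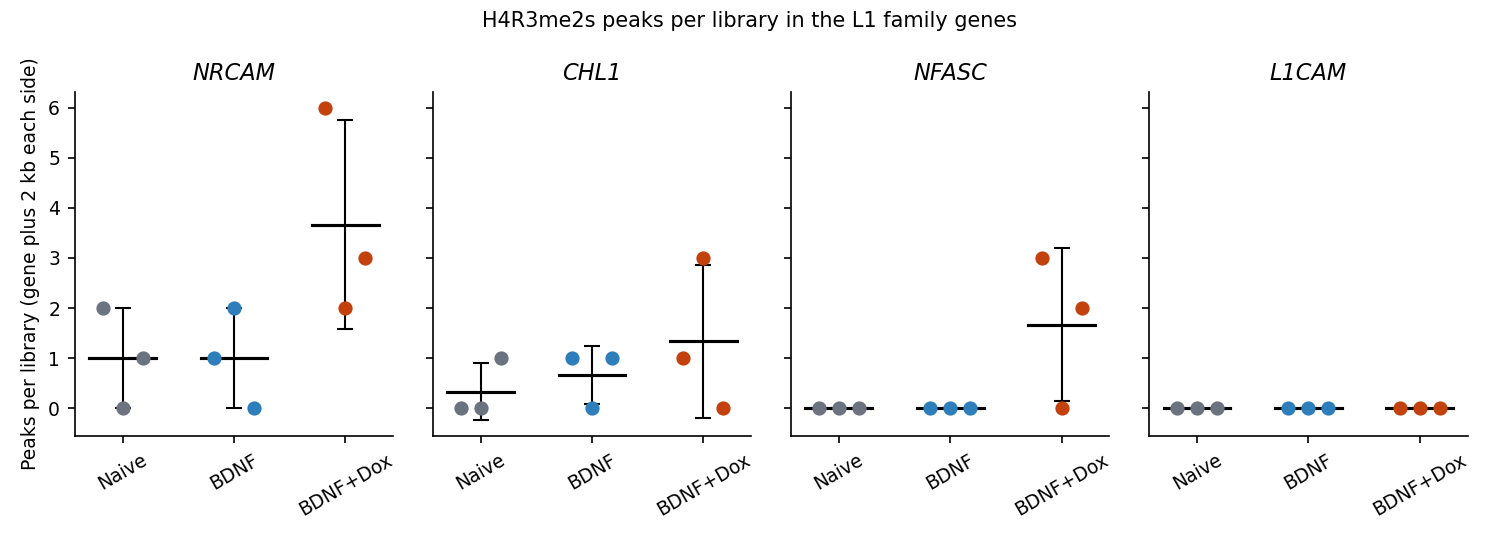
Peaks per library (y axis) in each L1 family gene plus 2 kb on each side, with 1 point per library, black bars for group means and error bars for the SD (n = 3). NRCAM reached 6 peaks in a BDNF+Dox library, NFASC had peaks in 2 BDNF+Dox libraries and in no other library, and L1CAM stayed at 0.

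Peaks of NRCAM and NFASC in BDNF+Dox were at least 3 times as many as in either other group, with 11 and 5 peaks over the 3 libraries. This pattern, with at least 4 BDNF+Dox peaks, was set after the values were seen and occurred in 0.596% of all protein-coding genes and 3.22% of those of 100 kb or more. Over the genome the BDNF+Dox libraries held 10864, 6942 and 6330 peaks and the BDNF libraries 6171, 4536 and 6888. The Naive libraries held 12207, 5901 and 7914. The groups overlap, and Naive replicate 1 stands highest, followed by BDNF+Dox replicate 1. By their means, 46.4% of the 7453 genes with a library peak were higher in BDNF+Dox than in BDNF and 25.4% were lower. Among those of 100 kb or more, 52.7% were higher and 24.1% lower. When each library was reduced to its 4536 strongest peaks, the family held 4, 5 and 4 peaks in the BDNF+Dox libraries, 0, 2 and 0 in BDNF and 1, 0 and 1 in Naive. NRCAM then had 2, 2 and 2 BDNF+Dox peaks against 0, 2 and 0 in BDNF (exact permutation p = 0.229 over the 3 groups), and NFASC 2, 0 and 2 against 0 throughout.

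The surroundings of the genes were counted in the same way. Within 5 Mb on either side of NRCAM, leaving out the gene, BDNF+Dox libraries held 5.20 ± 0.520 peaks per Mb, BDNF libraries 3.07 ± 0.208 and Naive libraries 4.93 ± 3.28 (SD, n = 3). Genes of chromosome 7 as a whole held 4.30 ± 1.27, 2.97 ± 0.538 and 4.17 ± 2.02 peaks per Mb, a higher density than the long genes of all chromosomes. Around NFASC the values were 3.47 ± 0.814, 2.87 ± 0.451 and 2.97 ± 0.462 peaks per Mb, and around CHL1 3.08 ± 1.17, 2.37 ± 1.25 and 2.82 ± 1.06. The CHL1 window measured only 5.19 Mb, since the gene lies near the start of chromosome 3. Around L1CAM, BDNF+Dox libraries were below Naive libraries in the mean, with 1.57 ± 1.00, 1.03 ± 0.306 and 2.13 ± 0.603 peaks per Mb. These L1CAM counts were divided by 10 Mb although chromosome X ends within the window. The 3 densities are therefore too low and serve only to compare the groups with each other. Whether the member genes differ from their surroundings was not tested.

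The family's library peaks were weak by the authors' measures, as were most peaks of these libraries. Of the 29 library peaks, 27 had q = 1 in the authors' deposited tables, and the lowest q was 0.473. Of all peaks in the median library, 91.7% had q = 1 there. In the 20 BDNF+Dox peaks the fold ran from 2.91 to 3.92 with a median of 3.48, and the scaled pileup from 5.41 to 9.47. In the 5 BDNF peaks the fold ran from 2.43 to 3.34 with a median of 2.77, and in the 4 Naive peaks from 3.07 to 4.21 with a median of 3.40. Ranked within their own library, 15 of the 29 peaks were above the middle of the list. These were 13 of the 20 BDNF+Dox peaks, 0 of the 5 BDNF peaks and 2 of the 4 Naive peaks. The peak highest in its list was the NRCAM peak of BDNF+Dox replicate 2 in the shared place, with 8.67% of that library's peaks stronger.

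**Figure D4:**
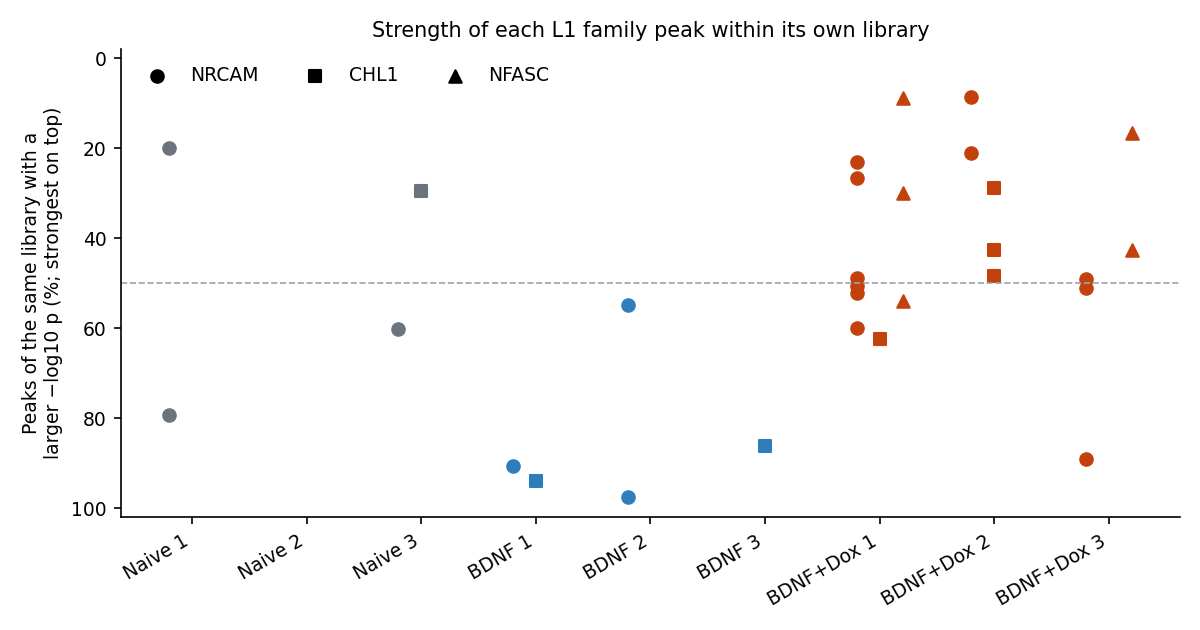
Rank of each library peak in NRCAM, CHL1 and NFASC within its own library, as the percentage of that library's peaks with a larger −log10 p (y axis, strongest on top), by library and coloured by group; the dashed line is the middle of the list. The 5 BDNF peaks all lie below the middle, and the BDNF+Dox peaks range from 8.67% to 89.2%.

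In the pooled narrow lists the family held 6 peaks over BDNF (NRCAM 2, CHL1 1, NFASC 3) and 5 over Naive (NRCAM 3, NFASC 2). This is 7.93 and 6.61 peaks per Mb, where the long genes held 3.95 and 3.16. A narrow peak was thus present in 3 of 4 members over BDNF and in 2 of 4 over Naive. The same held for 14.7% and 13.1% of all protein-coding genes, and for 51.4% and 44% of those of 100 kb or more. NFASC had the highest density of the members over BDNF, at 15.1 peaks per Mb. In the broad lists the family held 13 peaks over BDNF (NRCAM 5, CHL1 2, NFASC 6) and 13 over Naive (NRCAM 6, CHL1 2, NFASC 5), or 17.2 peaks per Mb in each, where the long genes held 10.1 and 8.18. A broad peak was present in 3 of 4 members in each list, in 25.5% and 23.7% of all protein-coding genes, and in 74.2% and 70.6% of the long genes. A library peak of BDNF+Dox lay under 3 of the family's 6 narrow peaks over BDNF and under 2 of the 5 over Naive. In the broad lists 3 of 13 did so in each. The same share over all pooled peaks was not counted, so these counts do not set the family apart. Besides the shared place, NRCAM had a broad peak just upstream of its most upstream start in each comparison, at 108458612 to 108459004 over BDNF and 108458627 to 108459004 over Naive (q = 1 for both in the authors' deposited table), with 0 library peaks beneath it.

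The known partners of the family were covered by a list of 33 genes: ankyrins, spectrins, contactins, neuropilins, semaphorin and plexin, extracellular ligands, receptors, tail-binding proteins, shedding proteases and node channels. All 33 were found in the annotation, and 19 are 100 kb or longer. In 25 of 33 at least 1 library had a peak, where 37.3% of all protein-coding genes and 90% of those of 100 kb or more had one. Naive libraries had peaks in 17 of the genes, BDNF libraries in 16 and BDNF+Dox libraries in 19. Of all protein-coding genes 21.9%, 18.8% and 24.2% had a peak in these groups, and of those of 100 kb or more 67.2%, 61.8% and 73.6%. The partner counts lie between these shares in each group. Peaks per Mb in the list were 2.82 ± 1.90, 2.44 ± 0.786 and 3.45 ± 0.664 (SD, n = 3). Of the 25 genes, 13 had a higher mean in BDNF+Dox than in BDNF, 9 a lower one and 3 the same. Of long genes with a library peak 52.7% were higher and 24.1% lower, and of all genes with a library peak 46.4% and 25.4%. The median difference in the 25 genes was 0.333 peaks per library. This was also the median over long genes with a library peak (0 over all genes with a peak). In the exact permutation test over the 3 groups 0 of these 25 passed after adjustment, which the lowest p of this test all but precludes. Without adjustment, 1 had a p under 0.05 in this test.

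That 1 gene was ANK3, which encodes ankyrin-G, the adaptor that ties NRCAM and neurofascin to the spectrin skeleton of the axon initial segment. ANK3 held 4, 3 and 4 peaks in the BDNF+Dox libraries, 1, 0 and 1 in BDNF and 3, 2 and 3 in Naive. Every BDNF+Dox library was above every BDNF library, and so was every Naive library. The means were 3.67 ± 0.577, 0.667 ± 0.577 and 2.67 ± 0.577 (SD, n = 3, exact permutation p = 0.0107, adjusted over all genes p = 1). Of the 7453 genes with a library peak 1.62% had all BDNF+Dox libraries above all BDNF libraries, and of the long ones 3.18%. The order in ANK3 differs from that in NRCAM and NFASC, where Naive was as low as BDNF. ANK2, encoding ankyrin-B, had its lowest mean in BDNF+Dox, with 0, 1 and 1 peaks in BDNF+Dox, 3, 0 and 3 in BDNF and 2, 1 and 1 in Naive (exact permutation p = 0.479, adjusted p = 1).

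SEMA3A, the repellent ligand for the receptor complex of neuropilin and L1 proteins, was the 1 partner gene with a peak in all 9 libraries. It held 7, 4 and 6 peaks in BDNF+Dox, 1, 3 and 6 in BDNF and 8, 2 and 2 in Naive, which overlap (exact permutation p = 0.55, adjusted p = 1). PTPRZ1, a receptor phosphatase that binds contactin and NRCAM, had 4, 1 and 0 peaks in BDNF+Dox, 0, 1 and 0 in BDNF and 4, 2 and 2 in Naive (exact permutation p = 0.229, adjusted p = 1). CNTN1 (contactin 1), PLXNA4 (a semaphorin co-receptor), PTPRB (a receptor phosphatase) and EGFR (a growth factor receptor) had group means between 0 and 2 peaks per library, with exact permutation p from 0.529 in CNTN1 to 1 in EGFR.

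In the pooled narrow lists 12 of the 33 partner genes had a peak over BDNF and 10 over Naive, where 14.7% and 13.1% of all protein-coding genes and 51.4% and 44% of the long ones did. At a −log10 p of 5 or more these were PLXNA4, PTPRB and PTPRZ1 over BDNF, and ANK2, SEMA3A and PLXNA4 over Naive, or 3 of 33 in each case. Such a peak was present in 2.7% and 2.3% of all protein-coding genes, and in 10.7% and 8.48% of the long ones. The strongest, in PLXNA4 over BDNF at 132307256 to 132307418 of chromosome 7, had fold 3.71 and a q value of 0.136 in the authors' deposited table. None of these partner peaks reached q of 0.05.

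**Figure D5:**
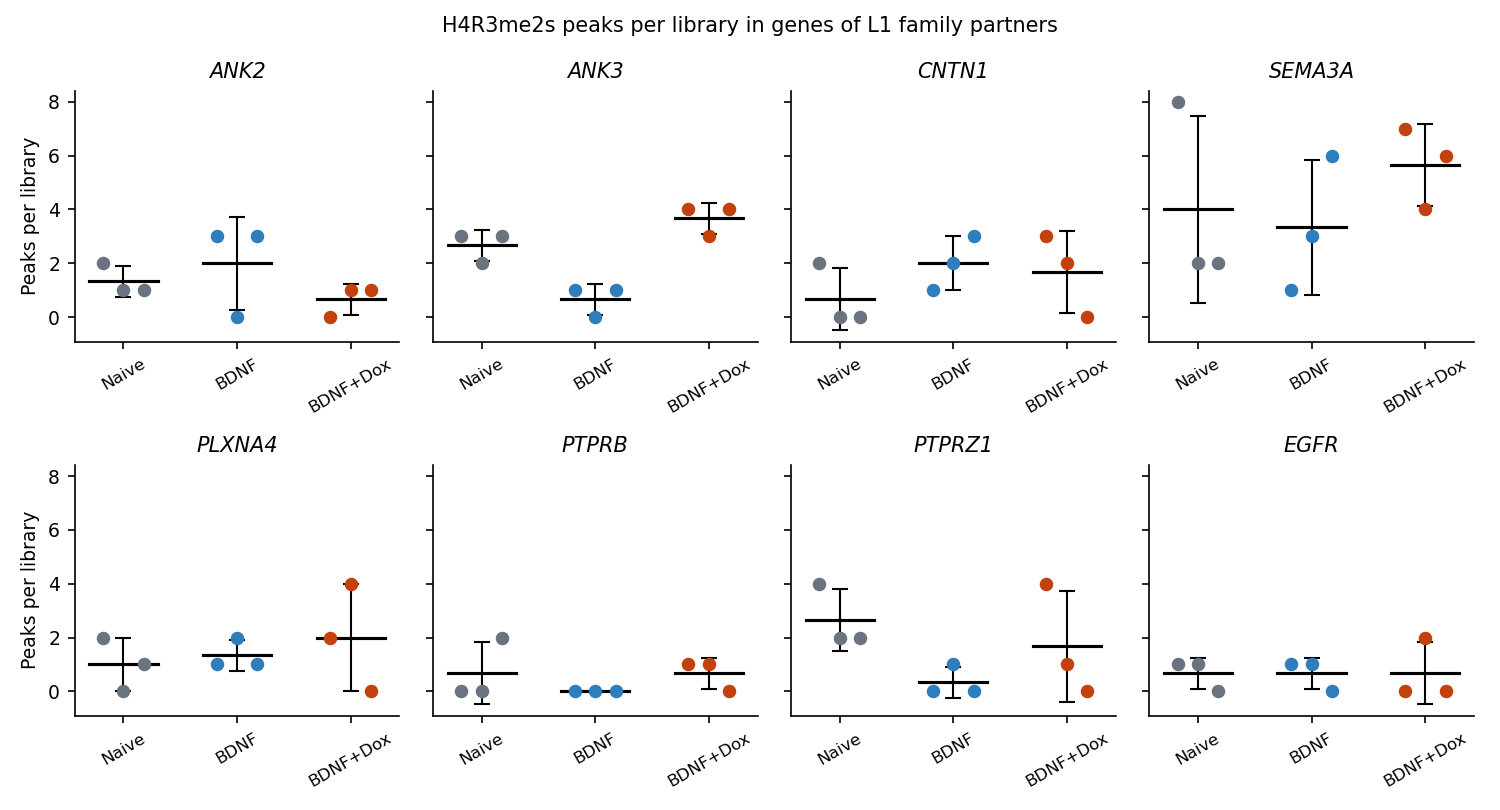
Peaks per library (y axis) in 8 genes of L1 family partners, those with a peak in 5 or more libraries or a pooled narrow peak at −log10 p of 5 or more; points are libraries, black bars group means and error bars the SD (n = 3). In ANK3 the BDNF libraries (0 to 1 peaks) lie below those of both other groups (2 to 4), while the groups overlap in SEMA3A.

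Across the 9 libraries, each member was set beside the 3 genes whose peak numbers correlated best with its own. Since these were picked as the highest of many correlations, their r would be high in any case. Among 707 other genes with 9 or more library peaks, NRCAM was most like TTC29 (Pearson r = 0.93), RANBP2 (0.91) and CAST (0.89). TTC29 held 4, 2 and 3 peaks in BDNF+Dox, 1, 1 and 0 in BDNF and 2, 0 and 0 in Naive. NFASC was most like CSMD2 (0.91), TRHDE (0.90) and KCNH1 (0.89), and CHL1 most like ROR1 (0.94), SBF2 (0.88) and THSD7A (0.84). These correlations describe 9 libraries with few peaks per gene, and genes of a library share its depth and its peak number. The correlation of the member with the number of all peaks of the library was 0.49 for NRCAM, 0.34 for NFASC and -0.0018 for CHL1.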

How the data were processed

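H4R3me2s ChIP-seq peaks of 9 libraries of SH-SY5Y cells (3 Naive, 3 BDNF, 3 BDNF+Dox) were used, fixed with 1% formaldehyde for 10 minutes per the labels. The submitters' processing notes name cutadapt 1.1 and Trimmomatic 0.32 for trimming, Bowtie and GRCh38 for alignment, and MACS2 2.2.7.1 for the peaks. Per the file headers, the p threshold was 0.01 with 1 read kept per position, each library was called over the Input, and the 4 pooled lists were called on merged libraries. The deposited values are pileup (a coverage signal), fold enrichment (a ratio), and −log10 p-value and q-value per peak, all from the authors' MACS2 runs. The headers state that q would not be calculated, yet the deposited q column holds values, used as given. Lists hold no read counts per place, so no counting interval was computed.

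Genes are RefSeq GRCh38.p14 spans (protein-coding, chromosomes 1 to 22 and X). Peaks meeting a span plus 2 kb by 1 bp or more were counted with Python 3.11.15, numpy 2.4.6 and pandas 2.3.3. The F ratio over 3 groups was tested for each of 7453 genes over all 1680 assignments of the libraries, with Benjamini-Hochberg adjustment. The code was checked on simulated data. That check used higher peak numbers than the members hold and only the unadjusted p, so it does not show what change could be found in them. Overlapping peaks of the libraries were merged into places. The members and lists were chosen with earlier results of these data known. Named places were those in 2 or more libraries or with a pooled q of 0.05 or less, and the strongest peak of each gene and list. Named partners had a pooled −log10 p of 5 or more or peaks in 5 or more libraries, and like genes were the 3 with the highest r. Same-numbered libraries of different groups showed correlations of deviations from -0.0491 to 0.134, and differently numbered ones from -0.141 to 0.100. Since libraries share so few peaks, these values can neither show nor exclude a pairing. Replicate numbers were not used as pairs in the main test. Alternatives were other thresholds, flanks, overlaps, equal peak numbers, leaving out each library and, added after the data were seen, peak numbers scaled to the total of the library.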

Additional observations from a re-analysis of the deposited data

How the results depend on the processing

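At a −log10 p of 5 or more, the BDNF+Dox minus BDNF difference in peaks per library was 0.333 in NRCAM and 0 in CHL1 and NFASC, and the family difference moved from 6.61 to 0.441 peaks per Mb. The pooled narrow lists then kept 1 family peak of 6 over BDNF and 1 of 5 over Naive, as they did at q of 0.05 or less, and the broad lists 0 of 13 in each case. Shared places in the family numbered 0 at that threshold and 0 with equal peak numbers per library, where the BDNF+Dox replicate 1 peak was not among the strongest 4536. Partner genes with a pooled narrow peak then numbered 3 of 12 over BDNF and 3 of 10 over Naive, and those with a BDNF+Dox library peak 6 of 19.

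Leaving out each library in turn, the difference ranged from 1.5 to 3.5 in NRCAM, from 1 to 2.5 in NFASC and from -0.167 to 1.33 in CHL1, where it reversed without BDNF+Dox replicate 2. The family difference ranged from 4.41 to 7.71 peaks per Mb. The 1 shared place was kept each time, but this was fixed in advance. The rule asks only for the libraries that remain, so leaving 1 out cannot remove the place. Without BDNF+Dox replicate 2 the unadjusted exact permutation p over the groups was 0.0357 in NRCAM (difference 3.5) and 0.0357 in NFASC (2.5). No other such setting passed. The cause was not tested. Without flanks or with 10 kb of flank, no call changed.

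The replicate numbers are only numbers in these labels. With the replicate block, permuting within numbers, the exact permutation p over the groups was 0.222 in NRCAM (difference 2.67), 0.889 in CHL1 (0.667) and 0.333 in NFASC (1.67), so no call changed.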
